A study of Mus musculus with 8 samples.

Results

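The genes described are 53 components of Wnt signalling: the Wnt ligands, their Frizzled receptors and co-receptors, the R-spondins and their Lgr receptors, the secreted inhibitors, and a few targets and feedback genes. They were chosen by name. Each was read from 1 probe set, the one of highest average signal among those that name that gene alone, which left 52 measured genes of 18193 in all; Tcf7 was not measured in this way. RNA came from tongue buds, from which the tongue forms, of C57BL/6J mouse embryos at embryonic day 13.5, with 4 one-colour Affymetrix arrays per group. Both groups carried Alk5 fl/fl, floxed alleles of the TGF-beta type I receptor gene (symbol Tgfbr1). Mutants also carried Wnt1-Cre, in which regulatory sequence of Wnt1 drives Cre recombinase in neural crest cells, the lineage of the tongue mesenchyme; muscle precursors and epithelium lie outside it. No group had Wnt1-Cre without the floxed alleles, so the transgene and the recombined receptor gene cannot be told apart as sources of a difference. Sex was not determined, and the labels do not say whether embryos shared a litter, so the p-values measure only the spread between these samples.

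Wnt proteins are lipid-modified secreted ligands that bind Frizzled receptors. With the co-receptors Lrp5 or Lrp6 they stabilise beta-catenin, which then acts with Lef1 and related factors on target genes, and with Ror1 or Ror2 they act without beta-catenin on cell polarity and movement. R-spondins, bound by Lgr receptors, keep Frizzled receptors at the cell surface, while Dkk, Sfrp, Frzb, Wif1 and Notum proteins inhibit the ligands or receptors. In the tongue, Wnt signalling is known from the epithelium of the taste papillae and from the outgrowth of the mesenchyme.

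The arrays were alike in scale, with medians of 5.96 to 6.01 and correlations across probe sets of 0.991 to 0.998 within groups and 0.988 to 0.996 between them. On the second principal component control 1 (score 18.2) and mutant 1 (−15.2) lay at opposite ends. The targeted gene did not fall: Tgfbr1 read 12.03, 12.12, 11.97 and 11.89 on the arrays labelled control and 12.42, 12.42, 12.37 and 12.36 on those labelled mutant, every mutant above every control, a rise of 0.39 (SE 0.0581, limma adjusted p = 0.00342), and its other 2 probe sets were also higher, by 0.82 and 0.52. Its probe sets could not be placed inside or outside the deleted part here, so the labels have no check from this gene, and every direction below rests on the labels. On all 8 arrays, 12 of 12 oral epithelial, 11 of 12 tongue muscle and 7 of 10 mesenchymal markers lay above the array median. So did 7 of 8 endothelial, 8 of 10 macrophage and 5 of 6 Schwann and glial markers. Of the neuronal, cartilage and erythroid markers 5 of 8, 3 of 6 and 4 of 5 did so. The same held for 11612 of all 18193 genes, so these counts are a weak check of the labelled tissue. The markers differed between groups. The mean of the muscle markers was 10.34 to 10.61 in controls and 9.80 to 10.07 in mutants, with 7 of 12 genes lower. That of the epithelial markers was 9.95 to 10.20 in controls and 9.69 to 10.14 in mutants, with 1 of 12 lower and all 12 changes below 0. That of the endothelial markers was 7.78 to 7.89 and 7.997 to 8.33, with 3 of 8 higher, and that of the macrophage markers 7.55 to 7.67 and 7.08 to 7.51, with 4 of 10 lower. The 10 mesenchymal markers had means of 8.86 to 9.14 and 8.97 to 9.16, with 1 higher. Schwann and glial markers were at 7.95 to 8.22 and 7.61 to 7.87 (3 of 6 lower), neuronal at 7.40 to 7.61 and 7.21 to 7.34 (2 of 8 higher, 4 lower), cartilage at 6.54 to 6.82 and 6.81 to 6.89 (1 of 6 higher) and erythroid at 8.70 to 8.95 and 8.52 to 8.89 (0 of 5 called). The bud is a mixture, so fewer cells of a type and less RNA per cell cannot be told apart, and the part of these shifts in the Wnt results below was not tested.

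The genes that changed were receptors, inhibitors and a feedback gene. In mutants Ror1 rose 2.05-fold, Fzd7 1.34-fold and Fzd3 1.28-fold, and Fzd9 fell to 0.696 of its control level. The inhibitor gene Dkk1 rose 1.45-fold and Dkk3 fell to 0.819, the feedback gene Nkd2 fell to 0.637, and the R-spondin receptor gene Lgr4 fell to 0.836. None of the 17 ligands passed the test in either direction. In limma, with a two-sided test adjusted over all 18193 genes by Benjamini-Hochberg, 8 of 52 Wnt genes passed an adjusted p of 0.05, 4 higher and 4 lower, or 15.4%, where 9.72% of all genes passed (4.20% higher and 5.52% lower). Of all genes 5505 lay below the array median on all 8 arrays, beside 6 of the 52 Wnt genes. These shares thus do not compare genes of like signal. With genes required to exceed the array median on at least 4 arrays, 12198 were tested, and 1030 were higher and 1091 lower. Of the Wnt genes, 45 of which lay above it on all 8 arrays, 9 then passed. All 4 mutant values lay on 1 side of the 4 control values in 12 of the 52 genes, 6 higher and 6 lower, or 23.1%, where 17.8% of all genes did so (8.92% higher and 8.87% lower). The median log2 change was −0.027 over the Wnt genes and −0.011 over all genes. Without controls 1 and 3, a pair chosen with earlier results of these data known, 4 Wnt genes passed, and of the 8 only Ror1 and Fzd9 were among them. On the second principal component control 1 scored 18.2 and control 3 scored −8.20, so they did not lie together there. With 1 array left out 5 to 10 passed, with 5 in the absence of control 2, mutant 2 or mutant 4.

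**Figure D1:**
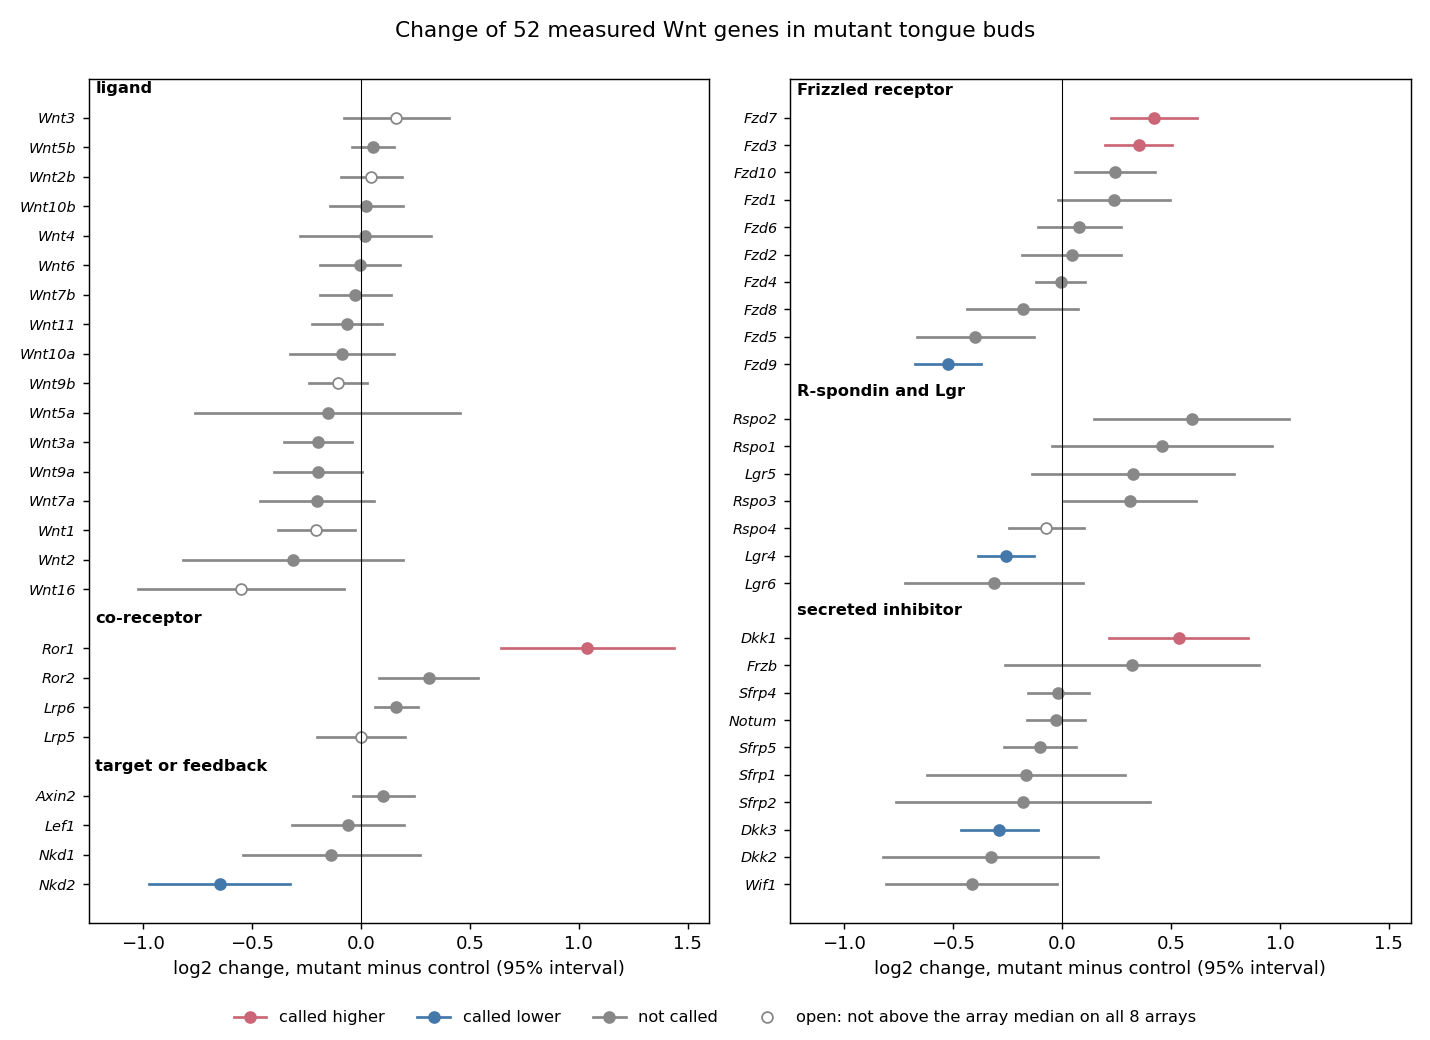
Log2 change (mutant minus control, horizontal axis) of each of the 52 measured Wnt genes by role, with 95% intervals from limma before adjustment; red marks genes called higher, blue lower and grey not called, and open symbols mark genes not above the array median on all 8 arrays. Ror1, at 1.04, lies farthest to the right, and the intervals of the ligands mostly span 0.

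Promoter sequence of called genes is shown so that the letters around their start sites can be read beside the changes. RefSeq promoters (GRCm38.p6, 300 bases, of which 250 lie before the start) were held for 37 of the 53 genes, in 44 windows, among them 6 of the 8 called genes. The stretches cover the bases from 180 to 31 before the start of 2 genes that rose and 2 that fell, picked from those 6 after their values were seen, on the strand of the gene, with motif letters in capitals.
Ror1, chr4:100095611-100095760 (+), higher in mutants: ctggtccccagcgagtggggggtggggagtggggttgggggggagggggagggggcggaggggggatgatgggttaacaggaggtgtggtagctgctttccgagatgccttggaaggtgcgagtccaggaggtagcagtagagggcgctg
Fzd7, chr1:59481967-59482116 (+), higher: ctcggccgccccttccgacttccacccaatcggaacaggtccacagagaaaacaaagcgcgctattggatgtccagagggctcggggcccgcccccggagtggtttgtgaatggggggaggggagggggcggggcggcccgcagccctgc
Fzd9, chr5:135251078-135251227 (-), lower: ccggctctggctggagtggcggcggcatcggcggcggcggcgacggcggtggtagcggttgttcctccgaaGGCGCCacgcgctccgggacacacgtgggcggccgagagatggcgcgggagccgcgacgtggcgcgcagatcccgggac
Nkd2, chr13:73847662-73847811 (-), lower: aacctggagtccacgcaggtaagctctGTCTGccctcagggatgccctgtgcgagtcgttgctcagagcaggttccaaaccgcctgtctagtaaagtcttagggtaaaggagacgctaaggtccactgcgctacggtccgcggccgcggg

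Motifs were searched on both strands over the whole 300 bases, and none of the 4 contains another. The TCF/LEF letters CTTTGAT were in 0 of the 6 called genes' windows and in 2 of the 44 windows (1 each of Wnt11 and Wnt5b), where 3.73% of 32851 promoters held them. The SMAD letters GTCTG were in 2 of the 6, Nkd2 at 153 bases before the start and Dkk1 after the start, and in 22 of the 44, where 49.6% of promoters held them. The GC-rich SMAD letters GGCGCC were in 1 of the 6, Fzd9 at 109 bases before the start, and in 16 of the 44, where 11.9% held them. The printed stretches do not show all called genes: Dkk1 rose and holds GTCTG, while Lgr4 fell and holds none of the 4 motifs. The 44 windows are not all distinct, since windows 1 and 2 of Lef1 overlap and share their GTCTG and GGCGCC sites. Both windows of Tcf7, which was not measured, also count among those with GGCGCC. The palindrome GTCTAGAC was in 0 of the 44, where 0.213% held it. These are matches of letters near a start site and say nothing of binding.

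Ligand genes had a median size of change of 0.105, beside 0.087 for all genes and 0.24 for the Frizzled receptors. Of 17, 0 passed the adjusted test in limma. An unadjusted p under 0.05 was found for 3, beside 4333 of all 18193 genes. The changes ran from −0.55 to 0.16 with a median of −0.088. Wnt5a, a ligand of Ror receptors that drives outgrowth of embryonic mesenchyme, had log2 values, in the order of the sample numbers, of 11.87, 10.68, 10.86 and 10.77 in controls and 10.45, 10.81, 11.36 and 10.94 in mutants. Control 1 was the highest of all arrays and mutant 1 the lowest, and the groups overlapped. The change of −0.15 had a 95% interval of −0.76 to 0.46, and it was 0.12 without control 1, so these arrays leave room for a change of either sign.

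Of the 17 ligand genes, 3 had groups that did not overlap, beside 17.8% of all genes, and none of these was called. Wnt1, the founding ligand of the family and the source of the transgene's regulatory sequence, read 4.57, 4.80, 4.62 and 4.92 in controls and 4.56, 4.51, 4.47 and 4.55 in mutants. Control 1 and mutant 1 differed by little, all 8 values lay below the array medians, and the change was −0.20 (SE 0.0778, adjusted p = 0.144). Without controls 1 and 3 it was −0.34 with an adjusted p of 0.0255, and adjusted p-values over its 16 alternatives ran from there to 0.287. Wnt16, which is best known from bone and joints, read 6.52, 5.65, 5.57 and 5.36 in controls and 5.23, 5.12, 5.22 and 5.33 in mutants. Control 1 alone lay above its array median, and the change of −0.55 (adjusted p = 0.146) was −0.30 without that array (0.0557). Wnt5b, a close relative of Wnt5a, read 7.75, 7.79, 7.79 and 7.76 in controls and 7.85, 7.86, 7.81 and 7.79 in mutants, a separation that came with a change of 0.055 (adjusted p = 0.495).

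Ligand genes known from oral and papilla epithelium differed by little. Wnt10a changed by −0.088 (95% interval −0.33 to 0.15), Wnt10b by 0.024 (−0.14 to 0.19), Wnt4 by 0.02 (−0.28 to 0.32), Wnt6 by −0.0040 (−0.19 to 0.18) and Wnt7b by −0.026 (−0.19 to 0.14). On these probe sets the intervals of Wnt6, Wnt7b and Wnt10b thus end below a change of 0.2 in size, while that of Wnt4 allows more. Another probe set gave 0.11 (SE 0.0775) for Wnt6 and 0.095 (SE 0.129) for Wnt7b, which the bound does not cover. Wnt3a differed by −0.20 (adjusted p = 0.12), Wnt9a by −0.20 (0.219), Wnt7a by −0.20 (0.34) and Wnt2 by −0.31 (0.449), with overlapping groups in each. The 3 probe sets of Wnt7a disagreed in sign, at −0.20, −0.25 and 0.26, with the dimmer ones below the array medians. Their mean changed by −0.060 (adjusted p = 0.685). Wnt11, which acts largely without beta-catenin, differed by −0.063. Wnt2b, Wnt3 and Wnt9b lay below the array median on all 8 arrays and differed by 0.048, 0.16 and −0.10, so little can be said of them here.

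Frizzled receptor genes moved in both directions, and 3 of 10 passed, beside 9.72% of all genes. All 10 lay above the array median on all 8 arrays, as did 11612 of all 18193 genes. Frizzleds are membrane receptors whose extracellular domain binds the Wnt ligand. Fzd9 (probe set 1427529_at) read 7.43, 7.66, 7.45 and 7.67 in controls and 7.04, 7.00, 7.02 and 7.05 in mutants. The 4 mutant arrays lay within a very narrow range below every control, and the fall was 0.52 on the log2 scale (means 7.55 ± 0.13 and 7.03 ± 0.023, SD, n = 4 each; SE 0.0672, limma adjusted p = 0.00176). Its printed promoter is the one that holds GGCGCC. Fzd9 was called in all 17 alternatives, at adjusted p-values of 0.000839 to 0.0142. It has 1 probe set, so the alternatives that only change the choice of probe sets read the same values.

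Fzd7 (1450044_at) read 10.85, 10.95, 10.88 and 10.54 in controls and 11.25, 11.21, 11.14 and 11.31 in mutants. Control 4 was the lowest array and the mutants lay close together, with a rise of 0.42 (SE 0.0882, adjusted p = 0.0167). The call was lost without mutant 4 (0.39, adjusted p = 0.0535), without controls 1 and 3 (0.48, 0.0519) and with the replicate block (0.42, 0.0693), the highest adjusted p of its alternatives. Fzd3, which is known for its part in axon guidance and planar polarity, read 10.22, 10.32, 10.27 and 10.42 in controls and 10.53, 10.70, 10.78 and 10.63 in mutants. Control 4 and mutant 1 stood nearest to each other without overlap, and the rise was 0.35 (SE 0.0679, adjusted p = 0.0113). The call was lost as the mean of its 6 probe sets (0.11, adjusted p = 0.306) and in the absence of controls 1 and 3 (0.29, 0.0845).

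**Figure D2:**
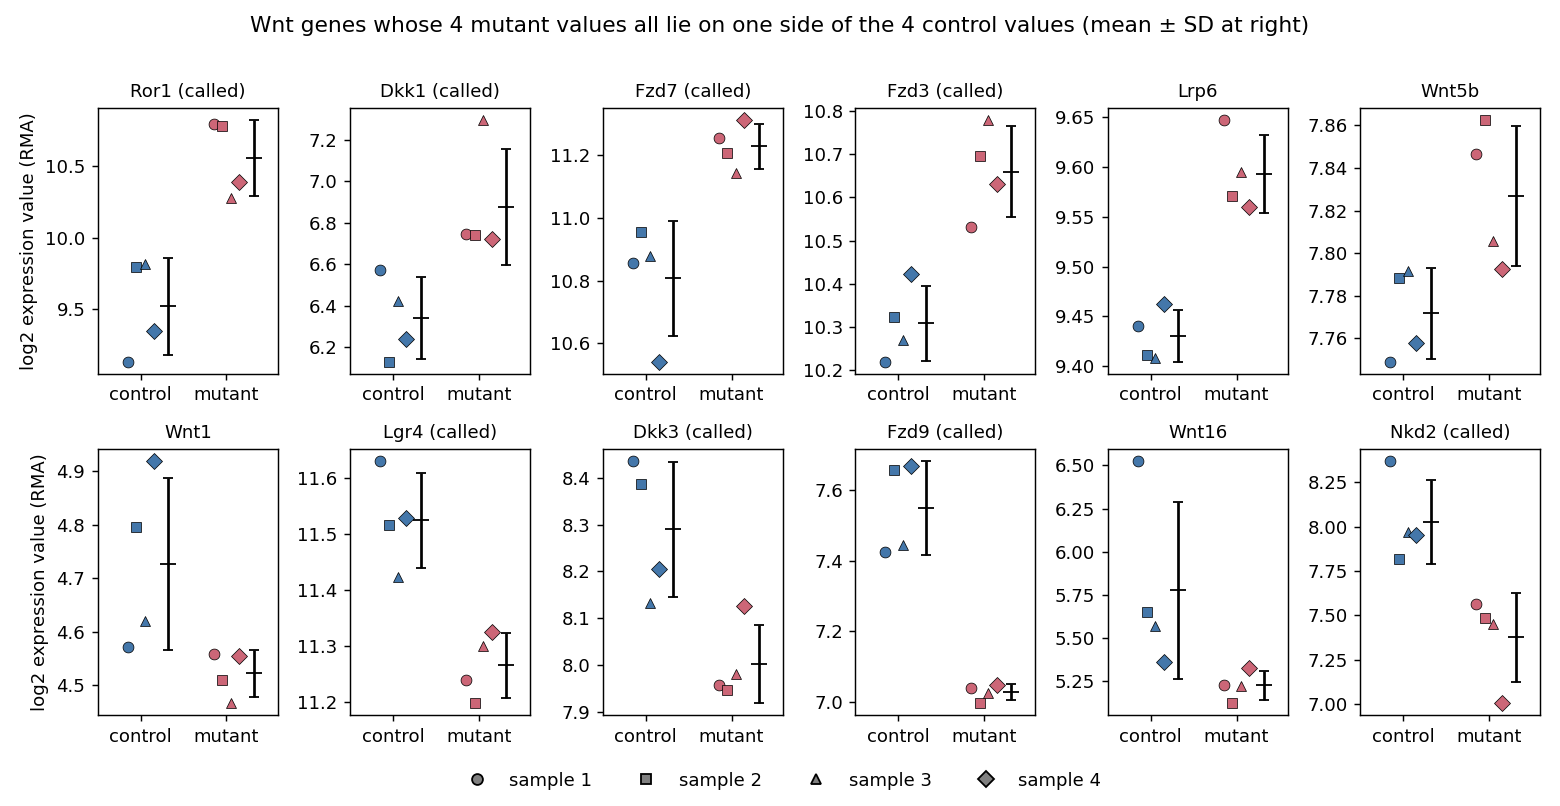
Log2 expression values on each array (vertical axis, scaled per gene) for the 12 Wnt genes whose control (blue) and mutant (red) values do not overlap; symbol shapes mark sample numbers and bars give mean ± SD. The gap is wide for Ror1 and Fzd9 and narrow for Wnt5b and Wnt1, and control 1 alone is high for Wnt16.

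The other Frizzled genes did not pass. Fzd1, the brightest of them, read 11.02, 11.11, 11.15 and 10.80 in controls and 11.56, 11.23, 11.04 and 11.21 in mutants. Mutant 1 was the highest and the groups overlapped, with a change of 0.24 (95% interval −0.02 to 0.49). Fzd5, a receptor of epithelia and of the eye field, differed by −0.40 (adjusted p = 0.0701) and passed without control 1 (−0.47, adjusted p = 0.0454) or without mutant 1 (−0.48, 0.0342) and with a trended, robust variance prior (−0.40, 0.0483). Fzd10 differed by 0.24 (adjusted p = 0.102) and Fzd8 by −0.18. Fzd2, Fzd4 and Fzd6 differed by 0.044, −0.0059 and 0.078, and the interval of Fzd4 ran from −0.12 to 0.11.

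Ror1, a co-receptor, had the change of largest size among the 52 genes. Ror1 and Ror2 are receptor tyrosine kinase-like proteins that bind Wnt5a, and both are known from limb and facial mesenchyme. Ror1 (1429313_at) read 9.13, 9.79, 9.82 and 9.34 in controls and 10.79, 10.78, 10.28 and 10.39 in mutants. Both groups were spread, and the lowest mutant, sample 3, was still above the highest control, sample 3. Controls averaged 9.52 ± 0.34 and mutants 10.56 ± 0.27 (SD, n = 4 each), so that Ror1 rose by 1.04 on the log2 scale (SE 0.177, adjusted p = 0.00623). It passed in all 17 alternatives, at adjusted p-values up to 0.0275, with a smaller change of 0.53 as the mean of its 3 probe sets.

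Ror2 read 9.50, 9.11, 9.20 and 9.13 in controls and 9.34, 9.67, 9.62 and 9.55 in mutants. Control 1 was above mutant 1, and all other mutants were above all controls. The change of 0.31 (adjusted p = 0.0908) did not pass, though it did without control 1 (0.40, adjusted p = 0.0212), without mutant 1 (0.38, 0.0479) and without controls 1 and 3 (0.43, 0.0457). Adjusted p-values over its alternatives reached 0.232. Lrp6, a co-receptor of Frizzled for beta-catenin signalling, read 9.44, 9.41, 9.41 and 9.46 in controls and 9.65, 9.57, 9.60 and 9.56 in mutants. Its groups were tight and apart, but the change of 0.16 (SE 0.0446) had an adjusted p of 0.051 and lay on either side of the threshold in the alternatives, from 0.023 to 0.585. Lrp5 lay below the array median on all arrays and differed by −0.0005.

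R-spondins and their receptors did not move one way. Lgr4, a receptor of R-spondins present in epithelia and mesenchyme, read 11.63, 11.52, 11.42 and 11.53 in controls and 11.24, 11.20, 11.30 and 11.33 in mutants. Control 3 and mutant 4 came nearest to each other, and the fall was 0.26 (SE 0.0574, adjusted p = 0.022). The call was lost without control 2 (−0.26, adjusted p = 0.057), mutant 1 (−0.25, 0.053) or mutant 2 (−0.24, 0.0708), without controls 1 and 3 (−0.26, 0.0538) and with the replicate block (−0.26, 0.0904). Rspo1, Rspo2 and Rspo3 gave higher mean values in mutants on their brightest probe sets without passing. Rspo2, an R-spondin of limb and craniofacial mesenchyme, read 9.35, 9.96, 10.003 and 9.40 in controls and 10.75, 10.18, 9.94 and 10.22 in mutants. Mutant 3 was below controls 2 and 3, and the change was 0.59 (95% interval 0.15 to 1.04, adjusted p = 0.1). The other Rspo2 probe set changed by −0.025 (SE 0.0585), and the mean of both by 0.28 (adjusted p = 0.156).

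Rspo1 read 8.94 on control 1 but 7.89 to 8.15 on the other controls, and 8.30 to 9.02 on the mutants. With control 1 the change was 0.46 (adjusted p = 0.256), and without it 0.68 (adjusted p = 0.0302). Rspo3 differed by 0.31 (adjusted p = 0.198), and by 0.060 (SE 0.100) on its other probe set. Rspo4 lay below the array median on all arrays and differed by −0.072. Lgr5, known as a stem cell marker and Wnt target, differed by 0.32 and Lgr6, its relative, by −0.31, both with overlapping groups and adjusted p-values of 0.384 and 0.339.

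Secreted inhibitor genes passed in 2 of 10 cases, beside 9.72% of all genes, in opposite directions and close to the threshold. The 10 inhibitor genes also lay above the array median on all 8 arrays, as did 11612 of all 18193 genes. Dkk1 blocks Lrp5 and Lrp6 and is itself a Wnt target. On 1420360_at it read 6.57, 6.13, 6.42 and 6.24 in controls and 6.74, 6.74, 7.30 and 6.72 in mutants. Mutant 3 was far above the other mutants, and control 1 was near them. The rise was 0.53 (SE 0.143, adjusted p = 0.0462). Without mutant 3 it was 0.39 (adjusted p = 0.0584), and leaving out any single array other than control 1 ended the call, 7 of 8 such fits, at changes of 0.39 to 0.59 and adjusted p-values up to 0.12. Without controls 1 and 3 it was 0.69 (adjusted p = 0.0533), and the call was also lost with the replicate block (0.53, 0.053), as the mean of its 2 probe sets (0.44, 0.0788) and adjusted over all probe sets (0.53, 0.0697).

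Dkk3, a divergent Dkk protein that does not bind Lrp6 as Dkk1 does, read 8.44, 8.39, 8.13 and 8.21 in controls and 7.96, 7.95, 7.98 and 8.13 in mutants. Control 3 and mutant 4 almost met, and the fall was 0.29 (SE 0.078, adjusted p = 0.0483). Leaving out any array other than control 3 ended this call too, in 7 of 8 fits, at changes of −0.33 to −0.24 and adjusted p-values up to 0.127. The adjusted p was 0.135 with the replicate block, the highest of its alternatives, 0.0746 with arrays centred on their medians, 0.0791 without controls 1 and 3, 0.0731 over all probe sets, 0.0502 as the mean of its 2 probe sets and 0.0524 with suffixed probe sets left out.

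Sfrp2, the brightest inhibitor gene, read 11.02, 12.01, 11.93 and 11.58 in controls and 12.02, 11.48, 10.90 and 11.41 in mutants. Each group spanned about the same range, and the change was −0.18 (95% interval −0.76 to 0.41). Sfrp proteins carry a Frizzled-like domain that binds Wnt ligands, as does Frzb, which differed by 0.32 (adjusted p = 0.509) with controls of 6.47 to 7.66. Wif1, which binds Wnt ligands directly, differed by −0.42 (adjusted p = 0.186), with control 1 at 9.73 and the other controls at 8.89 to 9.16, and by −0.24 without that array. Dkk2 differed by −0.33, with controls spread from 8.41 to 9.67 and mutants from 8.56 to 8.69, and the change was −0.098 without control 2 and −0.52 without control 4. Sfrp4, Sfrp5 and Notum, a lipase that strips the lipid from Wnt ligands, differed by −0.018, −0.10 and −0.028.

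Of the 4 target and feedback genes Nkd2, Nkd1, Axin2 and Lef1, only Nkd2 was called. Nkd1 and Nkd2 bind Dishevelled, restrain Wnt signalling and are induced by it. Nkd2 (1434275_at) read 8.37, 7.82, 7.97 and 7.95 in controls and 7.56, 7.49, 7.45 and 7.01 in mutants. Control 1 was the highest array and mutant 4 the lowest, the groups did not overlap, and the printed promoter holds GTCTG. The fall was 0.65 (SE 0.144, adjusted p = 0.0218), passed with any single array left out, and missed the threshold without controls 1 and 3 (−0.51, adjusted p = 0.097). As the mean of its 4 probe sets it was −0.38 (adjusted p = 0.02). Nkd1 differed by −0.14 (95% interval −0.54 to 0.27), with control 1 again the highest, at 8.76.

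Axin2, a scaffold of the beta-catenin destruction complex and the most widely used readout of Wnt signalling, read 8.65, 8.60, 8.51 and 8.42 in controls and 8.60, 8.63, 8.73 and 8.63 in mutants. The groups overlapped, and the change of 0.10 had an interval of −0.04 to 0.24. Lef1, the DNA-binding partner of beta-catenin, read 9.88, 9.65, 9.65 and 9.33 in controls and 9.44, 9.61, 9.74 and 9.48 in mutants. The change was −0.06 (−0.32 to 0.20). On these probe sets, the brightest of each gene, changes below −0.04 or above 0.24 lie outside the interval of Axin2. For Lef1, changes below −0.32 or above 0.20 lie outside it. Changes within the intervals are not resolved. The other Axin2 probe set, 1421341_at, lay below the array medians, at 3.85 to 4.03 in controls and 4.07 to 4.33 in mutants. Its change was 0.25 (SE 0.0725, limma adjusted p = 0.0885 over all probe sets), so the bound does not cover it. As the mean of its 2 probe sets Axin2 was 0.17 (adjusted p = 0.0868).

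Other genes of the pathway were taken from a list of 60, of which 59 were measured. Of these, 7 passed, 3 higher and 4 lower, or 11.9%, beside the 9.72% of all genes. On all 8 arrays, 48 of the 59 lay above the array median, beside 11612 of all 18193 genes. Gpc4, a glypican that carries heparan sulfate and binds Wnt ligands at the surface, read 9.54, 9.70, 9.67 and 9.97 in controls and 8.94, 9.01, 8.69 and 8.91 in mutants. All mutants lay well below all controls, with a fall of 0.83 (SE 0.0987, adjusted p = 0.00115). Shisa2, which holds Frizzled and FGF receptors back in the endoplasmic reticulum, fell by 0.65 (SE 0.0879, adjusted p = 0.00219). Tnfrsf19, a receptor of the TNF family and a Wnt target, fell by 0.53 (adjusted p = 0.0167).

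Tle4, a Groucho co-repressor of Lef1 and Tcf factors, rose by 0.45 (SE 0.0562, adjusted p = 0.00155), with controls at 10.53 to 10.69 and mutants at 11.01 to 11.15. Mycn rose by 0.64 (adjusted p = 0.00299). Gpc4, Shisa2, Tle4, Mycn and Tnfrsf19 passed in all 17 alternatives. Dvl1, one of 3 Dishevelled genes, fell by 0.22 (adjusted p = 0.04), and Pygo1, a nuclear partner of beta-catenin, rose by 0.36 (0.0498). With single arrays left out, Dvl1 passed only without control 3 and Pygo1 only without control 2, and Dvl1 was −0.10 (adjusted p = 0.276) with probe sets that can match several transcripts left out. By role, 2 of 10 nuclear factors rose, 1 of 11 destruction complex genes, 2 of 13 further modulators and 1 of 7 further targets fell, and 1 of those 7 rose. Of all genes, 4.20% were called higher and 5.52% lower. None of the 11 polarity genes and other receptors passed in limma. An unadjusted p under 0.05 was found for 3 of them, beside 4333 of all 18193 genes. Ctnnb1, encoding beta-catenin itself, read 14.05 to 14.09 in controls and 14.04 to 14.10 in mutants, with a change of −0.0027 (95% interval −0.10 to 0.09).

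Most genes had further probe sets, which read other parts or forms of a transcript. Of the 52 genes 34 had several, and in 19 of those all probe sets changed with the same sign. Ror1 was 1.04 on its brightest set and 0.13 and 0.41 on the other 2, whose values lay below the array medians. Fzd3 was 0.35 on the brightest and −0.087 to 0.15 on the others, the negative value being that of the dimmest. All 4 probe sets of Nkd2 were lower, from −0.65 to −0.14, both of Dkk3, at −0.29 and −0.21, and both of Lgr4, at −0.26 on each. Fzd9 had 1 probe set. Changes were smaller on the dimmer sets of Ror1, Fzd7, Fzd3, Dkk1, Dkk3 and Nkd2.

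Sfrp1 was the gene whose probe sets disagreed most. The brightest, 1428136_at, read 9.80, 9.55, 10.03 and 9.45 in controls and 9.93, 9.73, 9.55 and 8.96 in mutants, a change of −0.17 with the groups overlapping. The next, 1448395_at, read 8.83, 9.61, 7.81 and 9.40 in controls and 9.88, 9.80, 9.91 and 10.72 in mutants, so that all mutants lay above all controls, by 1.16 (SE 0.374, adjusted p = 0.116 over all probe sets). Mutant 4 was the lowest array on the first set and the highest on the second. The remaining 3 sets changed by 0.33, −0.059 and 0.47. As the mean of all 5 sets Sfrp1 was 0.35 and passed (adjusted p = 0.0388), opposite in sign to its brightest set, so no direction is given for this gene.

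**Figure D3:**
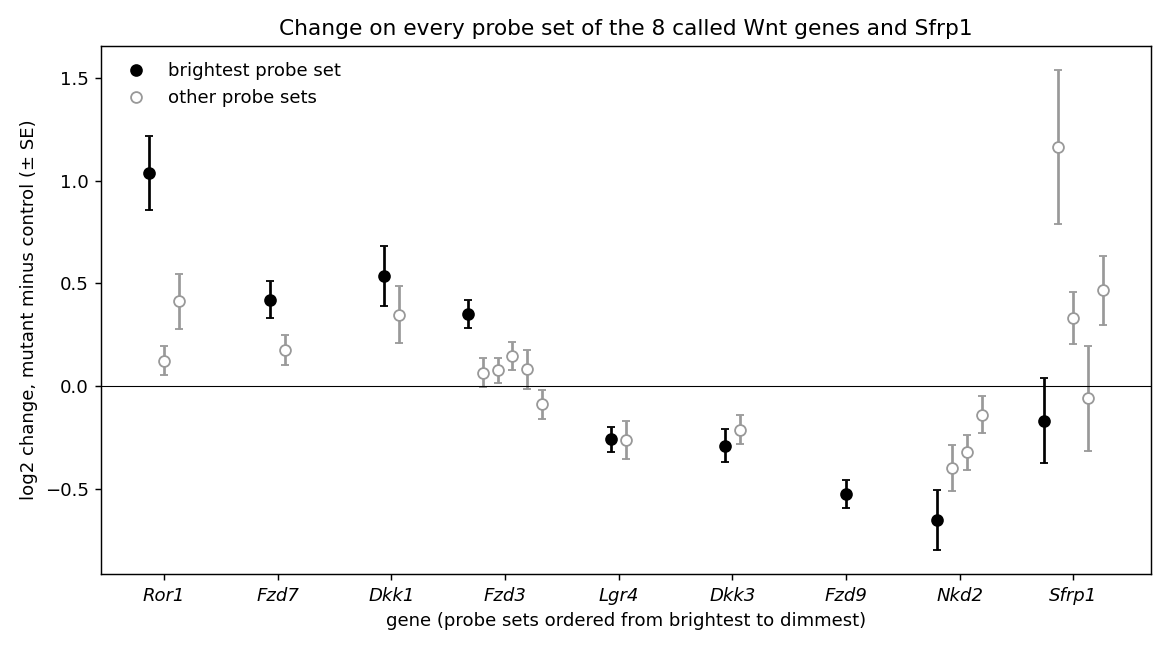
Log2 change (mutant minus control, ± SE, vertical axis) on every probe set of the 8 called Wnt genes and of Sfrp1, ordered from brightest (filled) to dimmest. The Nkd2, Dkk3 and Lgr4 sets all lie below 0, while those of Sfrp1 range from −0.17 to 1.16.

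The adjusted p-values of the called genes and their nearest neighbours depended on single arrays to different degrees. Control 1 was the highest or lowest control for 34 of the 52 genes and mutant 1 the highest or lowest mutant for 36, more than any other array of their groups, while mutant 2 was so for 12. Control 1 was the highest control for Wnt5a, Wnt16, Wif1, Rspo1 and Nkd2, and the lowest for Ror1, Rspo2, Sfrp2 and Frzb. Mutant 1 was the lowest mutant for Wnt5a, Wif1 and Rspo1 and the highest for Ror1, Rspo2, Sfrp2 and Frzb. With 1 array left out, changes that were not called ran from −0.39 to 0.0045 for Sfrp2, 0.16 to 0.57 for Frzb, 0.17 to 0.47 for Lgr5, −0.41 to −0.14 for Lgr6, −0.52 to −0.17 for Wnt2, −0.25 to −0.080 for Wnt7a, −0.28 to −0.11 for Fzd8 and 0.14 to 0.31 for Fzd1. These genes were picked after their values were seen, and what these arrays share was not tested.

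**Figure D4:**
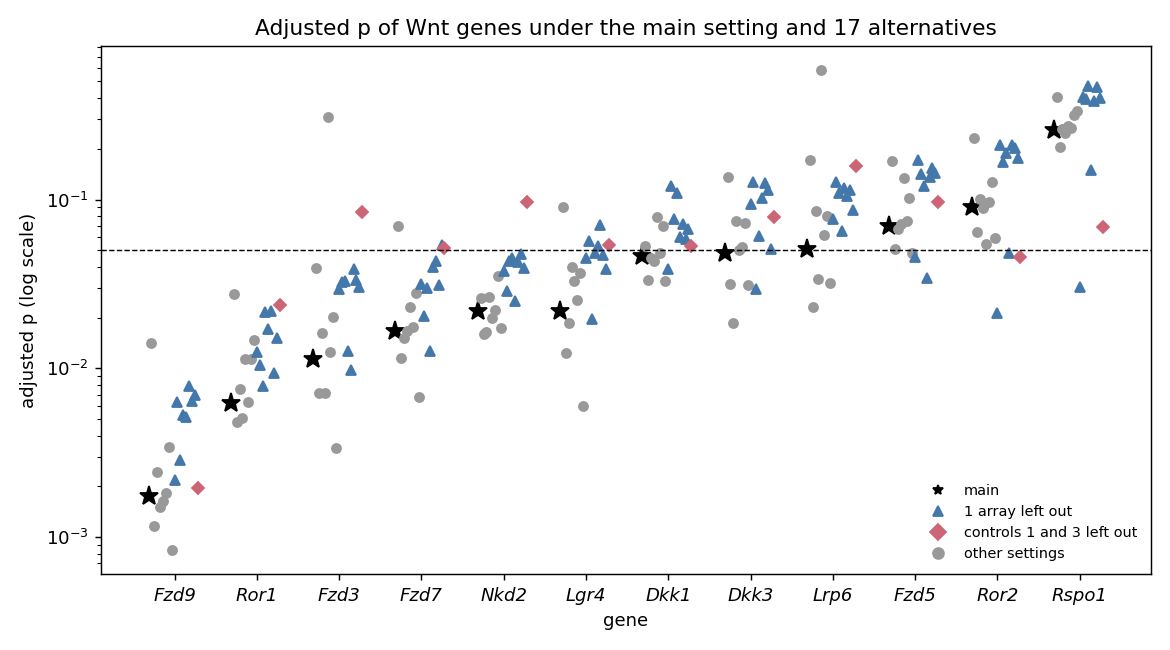
Adjusted p (vertical axis, log scale) of the 8 called Wnt genes and of Lrp6, Fzd5, Ror2 and Rspo1, as reported (stars) and under 17 alternatives, with 1 array left out as triangles and controls 1 and 3 left out as diamonds; the dashed line is 0.05. Fzd9 and Ror1 stay below the line throughout, and Dkk1 and Dkk3 straddle it.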

How the data were processed

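RNA of 4 control and 4 mutant tongue buds was measured on one-colour Affymetrix arrays. The log2 values were deposited by the authors after RMA, per the submitters' processing notes, with version and settings not given in the sources used here. RMA subtracts background, aligns the arrays and summarises each probe set, so shifts shared by most genes can be removed. Of 45101 probe sets, 34945 named 1 gene in the platform annotation, and 34741 of those matched a RefSeq gene identifier. No detection call was used, signals of different probe sets are not ranked as expression, and the number of arrays limits the precision. The test was limma's (version 3.58.1, R 4.3.3; lmFit and eBayes, two-sided), mutant against control, adjusted over 18193 genes at 0.05; SE is the moderated standard error. The procedure was tested on simulated data. The genes, lists, array pair left out and motifs were chosen with earlier results of these data known. Every gene is named; values on each array are given for genes called or with groups that do not overlap and the brightest of each role, and for Ror2, Rspo2, Axin2 and the probe sets of Sfrp1, added after their values were seen, as was Ctnnb1. Alternatives were a replicate block, a filter on dim probe sets, renewed normalization or centring, other probe set choices, another variance prior, and arrays left out.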

Additional observations from a re-analysis of the deposited data

Results flagged for a closer look

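Among 104 groups of 4 arrays (52 genes in each genotype), 5 held an array far from the other 3, where chance alone gives this in 5% of groups. Wnt5a read 11.87 on control 1 against 10.68 to 10.86 on the other controls. Wnt7a read 7.37 on control 4 against 6.86 to 6.94. Fzd8 read 8.63 on mutant 3 against 8.91 to 8.97 on the other mutants. Dkk1 read 7.30 on mutant 3 against 6.72 to 6.74, and its rise rests in part on that array. Frzb read 7.73 on mutant 1 against 7.05 to 7.09.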

How the results depend on the processing

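Of the 17 alternatives, those not leaving out 1 array gave these counts where they moved by over 1.5 times. With the replicate block, 2 Wnt genes were higher and 2 lower, against 4 and 4, and 329 of all genes higher and 637 lower, against 764 and 1004. Deviations of same-numbered samples correlated at −0.40 to 0.017. These correlations cannot show whether same-numbered samples shared a litter or handling, which the labels do not state. Without controls 1 and 3, 2 Wnt genes were higher and 2 lower, and 481 of all genes higher. Among the other pathway genes, 5 were higher, against 3, both when genes had to exceed the array median on 4 arrays and with the trended, robust prior. Leaving out 1 array gave 2 to 6 Wnt genes higher and 2 to 4 lower, 2 to 6 and 3 to 4 other pathway genes, and 428 to 623 and 687 to 960 of all genes. Sfrp1 turned from −0.17 to 0.35 as the mean of its probe sets. Fewer arrays are the construction of the leave-out settings; otherwise the cause was not tested. Signal below the array medians limits Wnt1, Wnt2b, Wnt3, Wnt9b, Lrp5 and Rspo4.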
